A study of Mus musculus with 4 samples.

Results

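Mitochondria translate the proteins encoded by their own DNA, all of them membrane subunits of oxidative phosphorylation, on a ribosome of their own. Its RNAs come from mitochondrial DNA, while every protein of its large and small subunits is encoded in the nucleus, made in the cytosol and imported. Some of these proteins have counterparts in the bacterial ribosome and others are found only in mitochondria.

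The genes described here are the autosomal protein-coding genes of the GENCODE M21 annotation of mouse (mm10) whose symbol is Mrpl or Mrps followed by a number, 78 of 20807 autosomal protein-coding genes. There were 49 Mrpl genes, for the large subunit, and 29 Mrps genes, for the small one. The gene set follows the symbol alone. Mrps30 and Mrps18a encode proteins that sit in the large subunit despite their names, the Mrps36 product is now known as a component of the 2-oxoglutarate dehydrogenase complex, and 5 mitoribosome proteins with other symbols lie outside it. A further 5 genes of the same symbol pattern are annotated as pseudogenes or other biotypes and were not counted, and none of the genes lies on X or Y.

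They were read in a profile of chromatin close to PML bodies, nuclear structures built on the PML protein. E14 mouse embryonic stem cells with an APEX-PML knock-in, which fuses a peroxidase to PML, were given hydrogen peroxide in 2 samples (H2O2+) so that nearby chromatin was biotinylated, and 2 samples went without it as controls (H2O2-). All 4 samples carried the knock-in and were grown with LIF plus CHIR99021, which inhibits GSK3, and PD0325901, which inhibits MEK; clonality of the line is not given in the sources used here. What was deposited is 1 list of 26496 peaks with replicates merged, holding only positions, with a median width of 223 bp. It carries no value for any sample, so depth is unknown, H2O2+ was not compared with H2O2- and no spread between replicates exists; the values below describe the list, and intervals cover counting error only. As a check of the cell type, 7 embryonic stem cell marker genes were looked up: Pou5f1, Sox2, Nanog, Klf4, Zfp42, Tfcp2l1 and Dppa5a. All 7 had a promoter peak, although that of Klf4, of 129 bp, only reached the edge of the 1 kb window. Of 8 marker genes of other cell types 1 had a promoter peak, Tubb3. A peak is not a measure of expression.

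Promoters are printed for 6 genes to show what the sequence looks like with and without a peak: the 3 with the widest promoter peak and the first 3, in alphabetical order, with none. Each runs 5′ to 3′ on the gene's own strand from 250 bp before to 50 bp after the start, in the RefSeq sequence of GRCm38.p6, the assembly of mm10. Capitals mark 4 short words described further on: CCGGAAG, read by ETS factors, TGCGCA, part of the NRF1 site, AAGATGG, part of the YY1 site, and ACTACAA, part of the ZNF143 site, each on either strand. The Mrps18b promoter lies at chr17:35916340-35916639 on the minus strand, that of Mrps30 at chr13:118387203-118387502 on the minus strand and that of Mrpl2 at chr17:46645979-46646278 on the plus strand. Those without a peak are Mrpl10 at chr11:97041310-97041609, Mrpl22 at chr11:58171411-58171710 and Mrpl24 at chr3:87919256-87919555, all on the plus strand.
Mrps18b: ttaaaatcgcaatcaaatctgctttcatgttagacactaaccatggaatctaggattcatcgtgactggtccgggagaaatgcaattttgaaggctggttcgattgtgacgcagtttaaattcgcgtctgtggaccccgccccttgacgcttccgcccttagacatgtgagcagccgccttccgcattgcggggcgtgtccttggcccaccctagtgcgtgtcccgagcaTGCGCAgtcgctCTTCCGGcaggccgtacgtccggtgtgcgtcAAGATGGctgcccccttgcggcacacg
Mrps30: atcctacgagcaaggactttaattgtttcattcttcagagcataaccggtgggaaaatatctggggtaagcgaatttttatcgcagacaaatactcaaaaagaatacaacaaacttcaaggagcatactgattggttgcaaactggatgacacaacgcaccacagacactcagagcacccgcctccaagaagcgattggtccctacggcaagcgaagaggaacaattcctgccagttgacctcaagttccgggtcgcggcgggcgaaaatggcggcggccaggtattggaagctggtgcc
Mrpl2: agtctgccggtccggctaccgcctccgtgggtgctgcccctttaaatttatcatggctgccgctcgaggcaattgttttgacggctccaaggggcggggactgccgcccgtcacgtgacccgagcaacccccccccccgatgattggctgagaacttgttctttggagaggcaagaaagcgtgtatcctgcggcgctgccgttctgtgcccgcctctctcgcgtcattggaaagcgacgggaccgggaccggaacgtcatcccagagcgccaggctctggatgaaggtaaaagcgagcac
Mrpl10: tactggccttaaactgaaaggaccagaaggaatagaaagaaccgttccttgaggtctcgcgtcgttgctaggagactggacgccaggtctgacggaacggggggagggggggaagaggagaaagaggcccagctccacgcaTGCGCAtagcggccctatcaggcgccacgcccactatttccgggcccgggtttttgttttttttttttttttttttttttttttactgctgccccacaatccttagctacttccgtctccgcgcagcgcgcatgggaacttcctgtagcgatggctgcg
Mrpl22: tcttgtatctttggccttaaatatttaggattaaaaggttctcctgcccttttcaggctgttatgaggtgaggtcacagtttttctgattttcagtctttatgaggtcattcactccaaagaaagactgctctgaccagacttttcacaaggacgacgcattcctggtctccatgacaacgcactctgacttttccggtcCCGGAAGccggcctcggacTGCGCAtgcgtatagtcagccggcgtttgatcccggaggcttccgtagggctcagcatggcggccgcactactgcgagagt
Mrpl24: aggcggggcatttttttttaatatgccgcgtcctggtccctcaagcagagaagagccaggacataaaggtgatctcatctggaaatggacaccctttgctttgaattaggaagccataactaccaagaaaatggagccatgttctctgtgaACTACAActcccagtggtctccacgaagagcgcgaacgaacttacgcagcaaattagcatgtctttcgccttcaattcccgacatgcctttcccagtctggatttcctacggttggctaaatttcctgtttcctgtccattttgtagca
In Mrps18b the ETS, NRF1 and YY1 words all lay inside the promoter peak, while Mrps30 and Mrpl2, with the next widest peaks, held none of the 4 words. Mrpl22 held an ETS and an NRF1 word, Mrpl10 an NRF1 word and Mrpl24 a ZNF143 word, with no peak over them.

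Nearly all mitochondrial ribosomal protein genes carried a peak at the promoter. A promoter peak, one that came within 1 kb of the gene's 5' end by 1 bp or more of its length, was present at 69 of 78 genes (88.5%, exact Clopper-Pearson 95% interval 79.2 to 94.6%), against 40.3% of all autosomal protein-coding genes. The 5' end itself lay inside a peak in 45 of the 78 genes (57.7%), against 24.2% of all genes. Among genes with a promoter peak this was 65.2%, against 59.9%. Within 500 bp of the 5' end 65 genes had a peak (83.3%, against 37.9% of all genes), and within 2 kb 70 had one (89.7%, against 42.3%). Most had a single peak: 8 genes had 2 promoter peaks (10.3%, against 7.19% of all genes with 2 or more). Among genes with a promoter peak the order turned round, with 11.6% against 17.9%. The 69 genes together used 76 distinct peaks. None of these peaks had a near-identical copy elsewhere in the genome at its centre. Cytosolic ribosomal protein genes and subunit genes of oxidative phosphorylation, the gene groups closest in function, had a promoter peak at 68 of 76 (89.5%) and 66 of 83 (79.5%).

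**Figure D1:**
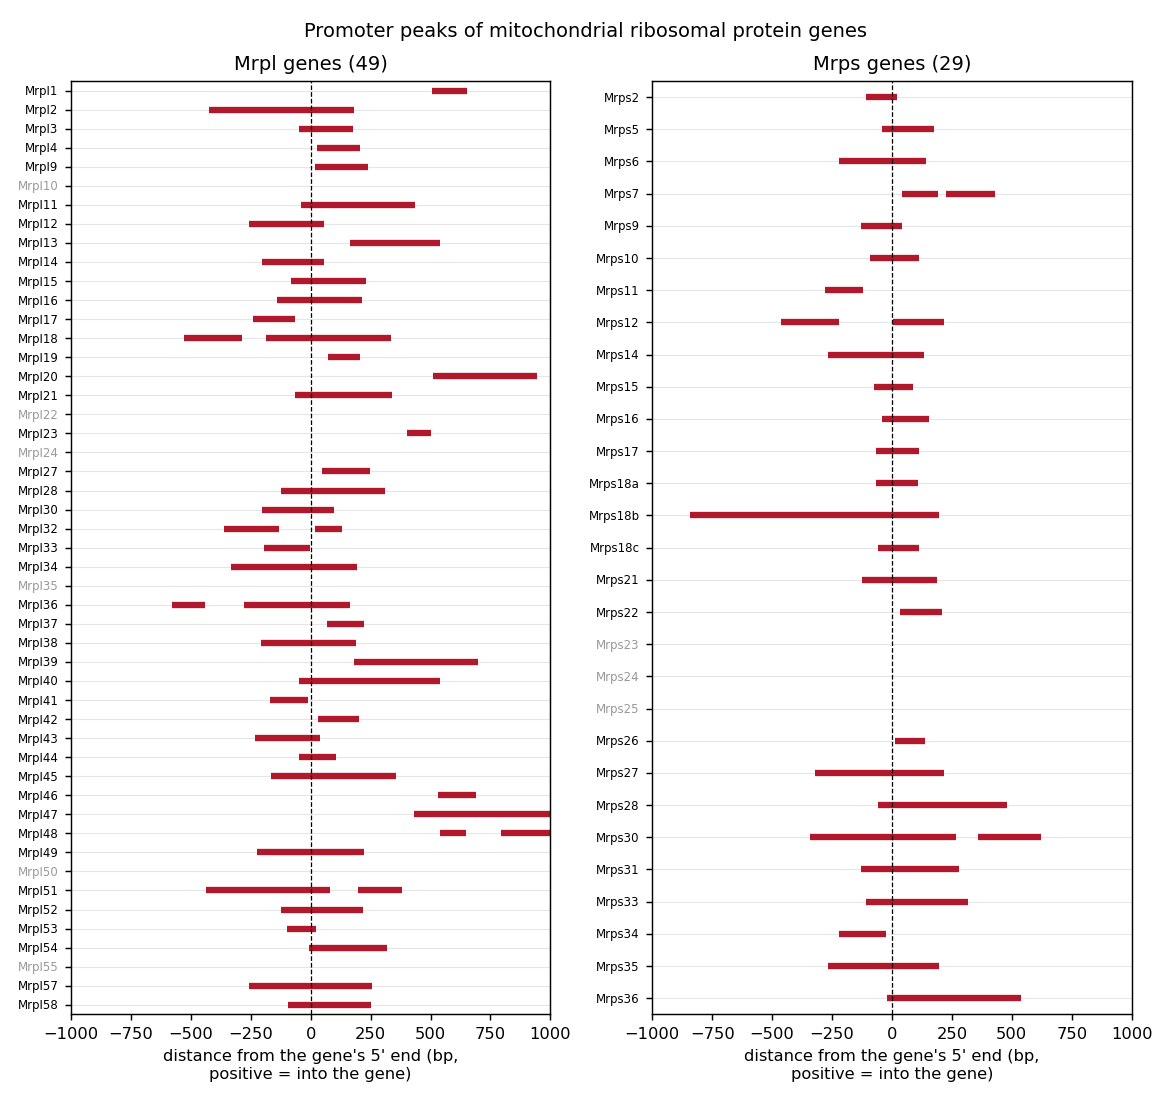
Promoter peaks of the 78 genes, each on its own row in order of symbol, Mrpl genes left and Mrps genes right. The x axis is the distance from the gene's 5' end in bp (dashed line, positive into the gene), bars are peaks clipped to 1 kb either side, and grey names are the 9 genes without one. Most bars lie on or just downstream of the dashed line, and 5 genes have the midpoint of their nearest peak over 500 bp downstream.

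The shares in the 2 subunits were close. Promoter peaks were found at 43 of 49 Mrpl genes (87.8%) and 26 of 29 Mrps genes (89.7%). Sorted by where the protein sits and by ancestry, 25 of 30 genes for large-subunit proteins with a bacterial counterpart had one, and 20 of 21 for large-subunit proteins found only in mitochondria. In the small subunit the counts were 15 of 16 with a bacterial counterpart and 8 of 10 without. Mrps36, which belongs to neither subunit, had a promoter peak of 560 bp.

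The stalk of the large subunit recruits the translation factors. Mrpl12, the gene of the stalk protein, had a promoter peak of 314 bp and Mrpl11, of the stalk base, one of 475 bp, while Mrpl10, which anchors the stalk, had none within 1 kb and its nearest peak 11460 bp away. Of the 8 genes for proteins around the tunnel exit, where the new chain leaves the large subunit towards the inner membrane, 6 had a promoter peak. They were Mrpl47 (601 bp), Mrpl45 (520 bp), whose product faces the membrane, Mrpl39 (518 bp), Mrpl17 (177 bp), Mrpl44 (155 bp) and Mrpl23 (101 bp, the narrowest of all 69). Mrpl22, whose product lines the tunnel, and Mrpl24 had none. Mrpl22 had no peak at all within 50 kb, whereas Mrpl24 had 10 distal ones.

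The promoter peaks were of ordinary width. The widest promoter peak per gene had a median of 301 bp over the 69 genes (quartiles 177 and 442 bp, range 101 to 1037 bp), against 282 bp over the 8386 autosomal genes with a promoter peak (quartiles 186 and 423 bp). It was over 500 bp in 14 genes, 200 to 500 bp in 32 and under 200 bp in 23. Mrpl genes had a median of 314 bp and Mrps genes of 210 bp, with ranges that overlap (101 to 604 bp and 124 to 1037 bp). It reached the list's median width in 42 of the 69 genes (60.9%), against 64.5% of all genes with a promoter peak, and belonged to the widest 25% of the list in 28 (40.6%, against 35.6%). Counted over genes with and without a peak, the shares were 53.8%, against 26.0% of all genes, and 35.9%, against 14.3%, which also carry the difference in how many genes have a peak. The list gives no height, so width is the only size a peak has here.

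Mrps18b stood apart with a peak of 1037 bp on chromosome 17 (35916194 to 35917230), at least as wide as that of 98.7% of the autosomal genes with a promoter peak. It encodes a small-subunit protein found only in mitochondria, and the same peak covers the start of Ppp1r10, on the opposite strand. Mrps30 followed with 610 bp on chromosome 13 (118386983 to 118387592), then Mrpl2 with 604 bp on chromosome 17 (46645806 to 46646409), Mrpl47 with 601 bp and Mrpl40, a protein of the central protuberance, with 587 bp on chromosome 16 (18876323 to 18876909). Mrps36 had 560 bp, Mrps27, whose product has pentatricopeptide repeats, and Mrps28 had 542 bp each, Mrpl34 had 525 bp, and Mrpl18 and Mrpl45 shared the tenth place with 520 bp. Large- and small-subunit genes were mixed among these.

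The 8 genes with 2 promoter peaks were Mrps30, Mrpl18, Mrpl51, Mrpl36, Mrpl48, Mrps12, Mrpl32 and Mrps7. In Mrps12, whose product forms part of the decoding centre, peaks of 215 and 242 bp lay on chromosome 7 at 28741602 to 28741816 and 28742040 to 28742281, with the gene's start at 28741820 between them. Mrpl32 had the same layout on chromosome 13, with peaks of 114 and 230 bp (14613036 to 14613149 and 14613299 to 14613528) on either side of its start at 14613165. In Mrpl18, Mrpl36, Mrpl51 and Mrps30 the wider peak covered the start, and in Mrpl48 and Mrps7 both peaks lay downstream.

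Peaks lay slightly into the gene. The midpoint of the peak nearest to the 5' end was at a median of 56.0 bp downstream (quartiles -42.5 and 128 bp), against -4.5 bp, upstream, over all genes with a promoter peak (quartiles -113 and 113 bp). It was downstream in 44 of 69 genes (63.8%), against 48.8% of all genes with a promoter peak. The same share was 47 of 68 in cytosolic ribosomal protein genes and 46 of 66 in oxidative phosphorylation genes. Position 35 bp after the 5' end was the one most often inside a peak, in 72.5% of the 69 genes, and for all genes with a promoter peak it was position -11, in 60.6%. The midpoint lay within 200 bp of the 5' end in 57 genes, over 500 bp upstream in none and over 500 bp downstream in Mrpl1, Mrpl20, Mrpl46, Mrpl47 and Mrpl48.

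**Figure D2:**
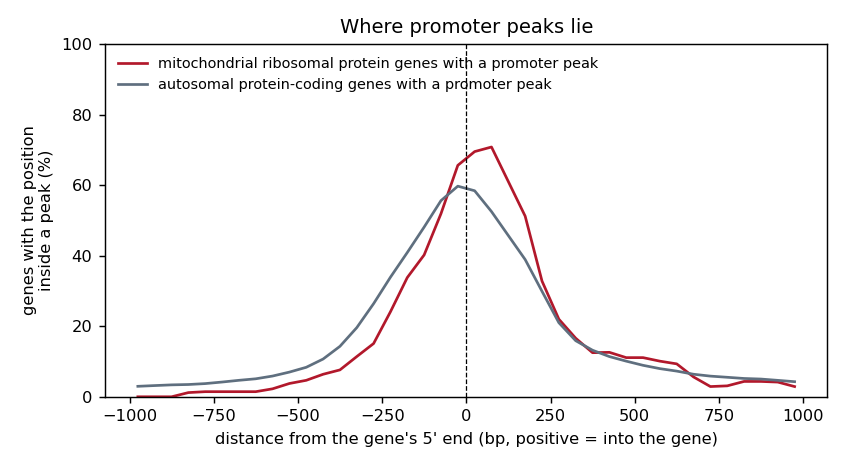
Share of genes (y axis, %) in which a position lies inside a peak, by distance from the gene's 5' end (x axis, bp, means over bins of 50 bp), for the 69 mitochondrial ribosomal protein genes with a promoter peak (red) and the 8386 autosomal protein-coding genes with one (grey). The red curve is highest from 50 to 99 bp downstream, at 70.8%, where the grey one stands at 52.5%.

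Which start is used moves this distance for some genes. In 9 of 78 genes the most upstream coding transcript of the GENCODE basic set begins elsewhere than the gene model, among them Mrpl20 (643 bp further in), Mrpl47 (458 bp) and Mrpl46 (442 bp), for which the peak is therefore closer to the coding start than to the 5' end.

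The 9 genes without a promoter peak were Mrpl10, Mrpl22, Mrpl24, Mrpl35, Mrpl50, Mrpl55, Mrps23, Mrps24 and Mrps25. They encode proteins of both subunits: Mrpl35 and Mrpl55 have bacterial counterparts in the large subunit and Mrps24 in the small one, while Mrpl50, Mrps23 and Mrps25 are found only in mitochondria. Mrps24 has a peak at its coding start, 7993 bp into the gene model, so that 70 of 78 genes (89.7%) had a peak at some annotated transcript start, against 44.5% of all genes. At Mrps23 the nearest peak was 1943 bp from the 5' end, at Mrpl35 4142 bp, at Mrpl24 8556 bp, at Mrpl55 25722 bp and at Mrps25 30820 bp. Mrpl22 (67289 bp) and Mrpl50 (110766 bp) were the most isolated, and were the 2 genes with neither a promoter nor a distal peak (2.56%, against 27.8% of all genes).

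Of these 9 genes, 5 lie on chromosome 11: Mrpl10, Mrpl22, Mrpl55, Mrps23 and Mrps24. Chromosome 11 holds 11 of the 78 genes, of which 6 had a promoter peak, while 63 of 67 had one on the other autosomes (94.0%). Over all genes the share on chromosome 11 was 42.2%, against 40.1% on the other autosomes. Chromosome 11 was singled out after these values were seen. Repeat-masked sequence, which the authors' mapping left out, made up a median of 15.4% of the promoter window in the genes without a peak and 14.5% in those with one.

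In this list promoter peaks follow CpG content, so the genes were set beside others of like promoters. The ratio of observed to expected CpG, taken from 500 bp before to 500 bp after the 5' end, had a median of 0.72 in the 78 genes and 0.568 in all autosomal protein-coding genes. In the upper classes 8 to 10 of 10 classes of equal size, 34 of 35 mitochondrial ribosomal protein genes had a promoter peak (97.1%), against 71.1% of all genes in those classes. In classes 1 to 7 the count was 35 of 43 (81.4%), against 27.1%, although few of the 43 genes lie in the lowest classes, where promoter peaks are rare. Within single classes the shares were 12 of 14 against 57.2% in class 6, 17 of 21 against 66.6% in class 7, and 15 of 15 against 73.6% in class 9. The gene outside classes 4 to 10 was Mrpl35, in class 1, without a peak at a 5' end that lies 3159 bp from its coding start.

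**Figure D3:**
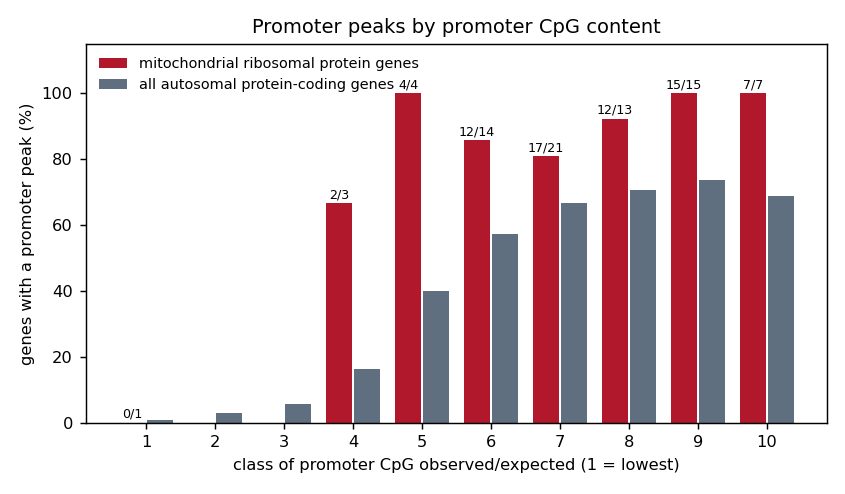
Share of genes with a promoter peak (y axis, %) by class of promoter CpG observed/expected (x axis, 1 lowest to 10 highest), for mitochondrial ribosomal protein genes (red, counts above the bars) and all autosomal protein-coding genes (grey). In classes 4 to 10 the red bars, from 66.7 to 100%, are above the grey ones, which reach 73.6%; class 1 holds 1 red gene, without a peak, and classes 2 and 3 hold none.

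Mitochondrial ribosomal protein genes often start back to back with another gene. A protein-coding gene pointing the other way, with its 5' end within 1 kb upstream, was found at 18 of 78 genes (23.1%), against 6.96% of all autosomal protein-coding genes. Opposite-strand pairs that overlap at their 5' ends, such as Mrpl46 and Mrps11, were not counted. The share was similar in oxidative phosphorylation genes, at 18 of 83 (21.7%), and was 8 of 76 (10.5%) in cytosolic ribosomal protein genes. A promoter peak was present at 16 of these 18 genes (88.9%) and at 53 of the 60 without such a neighbour (88.3%). Over all genes the shares were 78.7% with a divergent neighbour and 37.4% without. In all 16 pairs at least 1 peak counted for both genes, so these promoters give no separate reading for the pair.

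The 10 closest pairs had their 5' ends 26 to 83 bp apart. Mrpl54 with Apba3 (26 bp), Mrps18c with the helicase gene Helq (29 bp), Mrps34 with Eme2 (29 bp) and Mrps18b with Ppp1r10 (45 bp) each shared a peak that reached the sequence between the starts. So did Mrpl57 with Ska3 (49 bp), Mrpl49 with Fau (59 bp), whose product includes a cytosolic ribosomal protein, Mrpl30 with Mitd1 (66 bp) and Mrps27 with Ptcd2 (81 bp). Mrpl32 with the proteasome gene Psma2 (75 bp) shared 2 peaks, neither of which touched the sequence between the starts. Mrpl50 and Zfp189 (83 bp) had no promoter peak on either side.

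Peaks were shared beyond these pairs. In 33 of the 69 genes (47.8%) a promoter peak also touched the promoter window of another protein-coding gene. Over all genes with a promoter peak the share was 24.0%. The 33 include the 16 genes of the divergent pairs, and the higher share of divergent neighbours was not taken out of this comparison. Mrpl46 and Mrps11, a gene of each subunit, share a peak of 160 bp on chromosome 7 (78782840 to 78782999), with its midpoint at 611.5 bp from the 5' end of Mrpl46 and at -199.5 bp, upstream, from that of Mrps11. Counting this pair once left 68 of 77 loci with a promoter peak (88.3%).

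Away from the promoter, the genes had somewhat more peaks than the average gene. The mean number of distal peaks, with the midpoint within 50 kb of the 5' end and outside the promoter, was 3.06 per gene (median 2, range 0 to 10), against 2.24 over all autosomal protein-coding genes (median 1). At least 1 distal peak was found at 67 of 78 genes (85.9%), against 63.7% of all genes. Among genes with a promoter peak the mean was 3.0 for the 69 genes and 3.04 for all 8386. The genes also lie in denser surroundings, with a mean of 3.10 other protein-coding starts within 50 kb against 2.26, and many distal peaks are the promoter peaks of those neighbours. Without peaks at any protein-coding promoter the mean was 1.54 against 1.35 over all genes. At least 1 such peak was found at 48 genes (61.5%), against 50.7% of all genes. Among genes with a promoter peak that mean was lower in the 69 genes, 1.46 against 1.82, and the share was 62.3% against 63.0%.

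The distal numbers, promoter peaks of neighbours included, were also set beside those of genes with as many neighbours. These means were higher in every class, by little where 1 or 2 other starts lay near. With 1 or 2 other starts within 50 kb, the 32 genes had a mean of 1.78 distal peaks, against 1.75 over all such genes. With 3 or 4 starts the 21 genes had 3.43 against 2.77, and with 5 or more the 19 genes had 5.21 against 4.74. The 6 genes with no other start had 1.83 against 1.09. With peaks at protein-coding promoters left out, the order turned round with 5 or more starts, 1.79 against 1.96. The other classes then gave 1.83 against 1.09 (no other start), 1.25 against 1.21 (1 or 2) and 1.67 against 1.52 (3 or 4).

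The highest number, 10 distal peaks, was reached by Mrpl4, Mrpl20, Mrpl24, Mrpl52 and Mrps18b. At Mrpl24, which has no promoter peak, 6 of the 10 were promoter peaks of Prcc, Hdgf, Isg20l2 and Rrnad1, and the nearest had its midpoint at -8609.5 bp. At Mrpl20 one of them was the promoter peak of Aurkaip1 (chromosome 4, 155831248 to 155831842), another mitoribosome gene. At Mrpl4, 4 of the 10 lay at the promoters of S1pr2, Icam1 and Icam4. Of the 9 genes without a promoter peak, 7 had a distal one, with 7 at Mrps23, 5 at Mrps24 and 4 at Mrpl10.

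**Figure D4:**
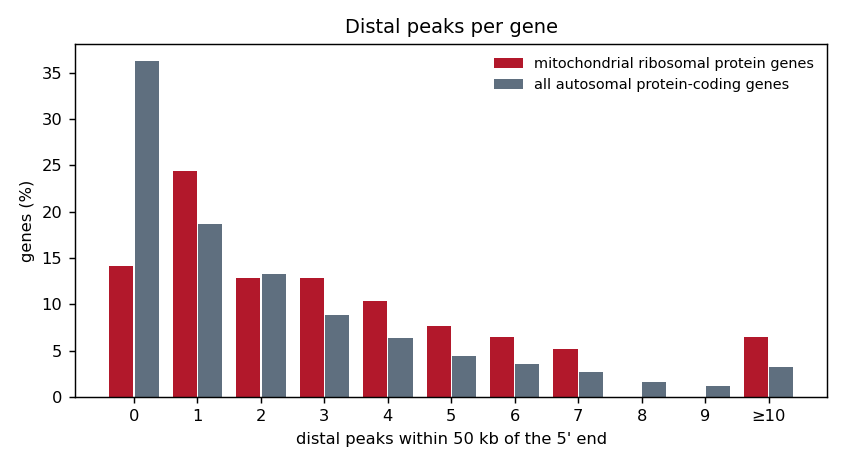
Share of genes (y axis, %) by the number of distal peaks within 50 kb of the 5' end (x axis), for the 78 mitochondrial ribosomal protein genes (red) and all 20807 autosomal protein-coding genes (grey). Genes with no distal peak make up 14.1% of the red group and 36.3% of the grey one.

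The genes are short, with a median length of 7.90 kb against 17.6 kb over all autosomal protein-coding genes. A peak inside the gene but outside the promoter was found at 13 of 78 genes (16.7%), against 21.4% of all genes. Mrpl33 and Mrps27 had 3 each and Mrpl48 had 2.

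Short words known from promoters of genes for mitochondrial proteins were counted from 250 bp before to 50 bp after the 5' end, on both strands. CCGGAAG, read by ETS factors such as GABPA, was present in 27 of 78 promoters (34.6%), against 11% of all autosomal protein-coding promoters and 19.6% of those with a promoter peak. TGCGCA, of the NRF1 site, was present in 18 (23.1%, against 9.42% and 16%), and AAGATGG, of the YY1 site, in 13 (16.7%, against 6.24% and 7.58%). At least 1 of these 3 words was found in 42 promoters (53.8%), against 23.5% of all and 37.0% of those with a promoter peak. ACTACAA, of the ZNF143 site, was found in 6 (7.69%, against 3.83% of all). The gene groups closest in function held these words often too: at least 1 of the first 3 was found in 36 of 76 cytosolic ribosomal protein promoters (47.4%) and 33 of 83 oxidative phosphorylation promoters (39.8%), and the ETS word in 22 (28.9%) and 15 (18.1%). The ZNF143 word was in higher shares there, 14.5% and 8.43%.

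The other words gave lower or similar shares. GGGCGG, read by SP and KLF factors, was present in 35 promoters (44.9%), against 43.7% of all and 65.2% of those with a promoter peak. CCAAT was found in 28 (35.9%, against 38.6% of all and 40.7% of those with a promoter peak). The E-box CACGTG was found in 5 (6.41%, against 7.82% and 10.8%) and TGACGT, of the CRE, in 8 (10.3%, against 8.63% and 12.6%). TATAAA was found in 5 (6.41%), fewer than the 12.7% of all but close to the 6.56% of those with a promoter peak. CpG content bears on such shares: in CpG classes 8 to 10 the ETS word was found in 14 of 35 promoters (40.0%), against 19.1% of all in those classes, and the YY1 word in 6 of 35 (17.1%), against 7.19%. The NRF1 word was found in 8 of these 35 promoters (22.9%, against 17.1%), a smaller gap than over all classes, and the ZNF143 word in 0 of them, against 3.32%, so that its order turned round there.

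**Figure D5:**
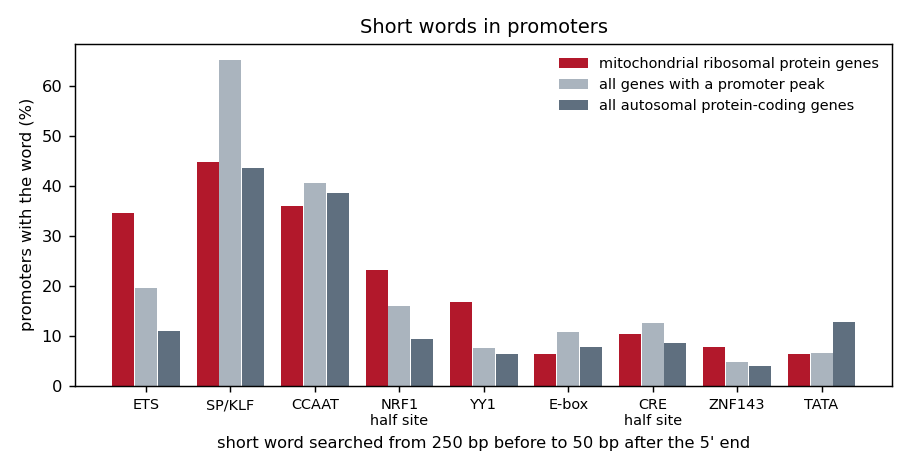
Share of promoters (y axis, %) that hold each of 9 short words (x axis, by the factor or element they are named after), for the 78 mitochondrial ribosomal protein genes (red), all genes with a promoter peak (light grey) and all autosomal protein-coding genes (dark grey). The ETS, NRF1, YY1 and ZNF143 words are highest in red, and the SP/KLF word is highest in light grey. Red counts genes with and without a promoter peak.

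The ETS words mostly lay under the peaks. Of the 24 genes with both an ETS word and a promoter peak, 20 had a word inside the peak (83.3%), against 73.6% of all such genes. For the NRF1 word this was 9 of 14 (64.3%, against 72.3%), for the YY1 word 7 of 13 (53.8%, against 50.8%) and for CCAAT 9 of 25 (36.0%, against 54.4%). Among the 9 genes without a promoter peak, 3 held an ETS word, 4 an NRF1 word and none a YY1 word. A match is a run of letters and not a measured binding site.

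Mitoribosome proteins with other symbols showed peaks at 4 of 5 genes. Aurkaip1 had a promoter peak of 595 bp, Chchd1 of 478 bp, Gadd45gip1 of 193 bp and Ptcd3, of the mRNA entry site, of 118 bp. Dap3, which encodes a GTP-binding protein of the small subunit, had none.

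Genes that act on the mitochondrial ribosome had promoter peaks at shares similar to the 88.5% above, against 40.3% of all autosomal protein-coding genes. Of 13 mitochondrial translation factor genes 12 had one, with the widest at Gfm2 (542 bp), Mtrf1l (499 bp), Mtif2 (365 bp) and Tsfm (334 bp), and Mtrf1, a release factor gene, without. Of 26 genes for assembly and rRNA modification 24 had one, with the widest at Mterf3 (537 bp), Rpusd4 (433 bp), Tfb1m (428 bp) and Dhx30 (424 bp), while Mterf4 and the GTPase gene Noa1 had none. Genes of mitochondrial DNA and transcription had one at 9 of 12, the widest at Tefm (445 bp), Polg (444 bp), Tfb2m (431 bp) and Polg2 (428 bp), with none at Lrpprc, Mterf1a and Mterf1b.

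Nuclear regulators of mitochondrial genes had a promoter peak at 6 of 8. Gabpa, the ETS factor gene, had one of 704 bp on chromosome 16 (84834492 to 84835195), Pprc1 of 669 bp, Esrra of 464 bp and Gabpb1 of 449 bp, and Yy1 and Nrf1 had narrower ones of 159 and 105 bp. Ppargc1a and Ppargc1b, which encode coactivators of the same family as Pprc1, had none.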

How the data were processed

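ALaP-seq reads came from E14 embryonic stem cells, 2 H2O2+ and 2 H2O2- samples. Trimmomatic trimmed the reads, Bowtie2 2.3.5.1 placed them on repeat-masked mm10, and blacklisted and greylisted regions were removed with bedtools, per the series' design text and the submitters' processing notes. How peaks were called, at which threshold, and how replicates were merged is not stated there. The file the authors deposited holds, per its values, the chromosome, start and end of each peak and no other value, so depth per sample is unknown.

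Genes and starts came from GENCODE M21 (GRCm38), with the 5' end of the gene model as the start. Overlap counts, CpG observed/expected, words and exact Clopper-Pearson intervals were computed with Python 3.11.15, pysam 0.24.0 and scipy 1.17.1, and minimap2 2.31 looked for further matches of a peak's middle 150 bp in GRCm38 (identity of 95% across 80% of those bases). The overlap and distance steps were tested on simulated data. No test was run, since no value belongs to a sample. The members and lists were chosen with earlier results of these data known. Genes named are those without a promoter peak, the widest, those with several peaks, those with most distal peaks, the stalk and tunnel exit genes, the closest divergent pairs and, of each related list, the widest and those without. The list of assembly genes matched 26 of 28 symbols, Trmt61b and Wbscr16 being unmatched, and 69 of the 78 genes are in the RefSeq promoter table. Windows, overlap rules, width cuts and starts were varied as alternatives.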

Additional observations from a re-analysis of the deposited data

How the results depend on the processing

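The share of genes with a promoter peak, 88.5%, ranged from 83.3 to 89.7% with windows of 500 bp or 2 kb, other overlap rules, other transcript starts, copies left out or shared loci counted once. It was lower with narrower peaks left out: 53.8% with peaks at or above the list's median width (26.0% of all genes) and 35.9% with peaks in the widest 25% of the list (14.3% of all genes), where fewer peaks remain by construction. The median width ranged from 292 to 313 bp (281 to 283 bp over all genes). The median position ranged from 36.0 to 56.0 bp downstream (-9.0 to -4.5 bp, upstream, over all genes). The mean number of distal peaks was 1.23 within 20 kb (0.869 over all genes) and 5.74 within 100 kb (4.44). The share with a divergent neighbour was 21.8% within 500 bp (6.32% over all genes) and 25.6% within 2 kb (7.92%). No paired analysis was possible because the merged list holds no value for any sample, and for the same reason no replicate could be left out. Heights are not in the list, so weak and strong peaks cannot be told apart, and a gene without a listed peak may still carry signal under the authors' threshold, which is not given here.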

Other observations

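The following features were singled out after their values were seen. Several of the shared promoter peaks joined a mitochondrial ribosomal protein gene to another gene with a known role in mitochondria. Mrpl43 shares its peak of 269 bp (chromosome 19, 45006405 to 45006673) with Twnk, the gene of the mitochondrial DNA helicase. Mrpl36 shares peaks of 442 and 137 bp with Ndufs6, and Mrpl47 shares its peak of 601 bp (chromosome 3, 32736574 to 32737174) with Ndufb5, both genes of complex I subunits. Mrps12 shares both of its peaks with Sars2, which encodes the mitochondrial seryl-tRNA synthetase. Mrps27 shares its peak of 542 bp (chromosome 13, 99344464 to 99345005) with Ptcd2, whose product acts on mitochondrial RNA. How often other promoters are shared by such pairs was not counted.

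Other shared peaks joined genes of other roles. Mrpl40 shares its peak of 587 bp with Hira, the gene of a histone chaperone that can localise to PML bodies, Mrpl18 shares peaks of 520 and 243 bp with the chaperonin gene Tcp1, and Mrpl51 shares peaks of 518 and 186 bp with the condensin gene Ncapd2.

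The YY1 word lay at a similar distance from the start in 6 genes. In Mrpl37, Mrpl42, Mrps10, Mrps18a, Mrps18b and Mrps27 it lay on the sense strand with its first base 15 to 30 bp after the 5' end. The search ended 50 bp after the 5' end, which by itself bounds this distance. The word lay in the sense direction downstream of the start in 6 of the 13 genes that hold it, against 317 of the 1299 autosomal protein-coding genes that hold it. Over all genes, with or without the word, this was 7.69%, against 1.52%. All 13 genes have a promoter peak, as do 69 of all 78 genes whatever the word. Of the 1299 genes that hold the word, 636 have one. Among genes with a promoter peak, 46.2% of the word's occurrences in the 69 genes lay downstream, on either strand, against 38.5% over all such genes.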
